A study of Mus musculus with 8 samples.

Results

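The collagen gene family was examined in spleen RNA of miR-155 knockout and wild-type mice. Its members were all array features whose gene name is Col followed by a type number, the letter a and a chain number. That rule took 63 features for 35 genes, out of 44170 features and 24203 named genes on the arrays. Each gene was represented by 1 feature, for 20 genes the brightest of several by its mean on the log2 scale. By structure, 10 members were fibrillar collagens, 4 were basement membrane collagens and 21 were others. The others were 9 FACITs, 7 network or beaded filament collagens, 2 multiplexins and 3 transmembrane collagens. Col26a1, Col6a5 and Col6a6 are on the arrays only under older names, so the rule left them out, and Col4a2, Col4a4, Col5a1, Col7a1 and Col23a1 were not analysed here.

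The knockout group was 4 mice with the genotype mir-155 knockout, of which Mim1-5 and Mim1-6 were labelled female and Mim2-2 and Mim2-3 male. The wild-type group was 4 mice, of which WT-1 and WT-3 were labelled female and WT-2 and WT-4 male. Every sample was labelled spleen, each was taken as 1 animal, and the strain, the age and the making of the knockout were not given in the sources used here. Cy3-labelled total RNA was measured on 1-colour NimbleGen arrays, on which nearly every feature is a set of 3 probes for 1 transcript. MiR-155 is a microRNA known for its part in lymphocyte and myeloid cell responses.

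Collagens are mostly secreted proteins, whose chains wind around each other in a helix that gives connective tissue its tensile strength. Fibrillar collagens pack into fibres, type IV collagen forms the net of basement membranes, and FACITs (fibril-associated collagens with interrupted helices) sit on the surface of fibres. In the spleen, fibroblastic reticular cells lay down reticular fibres rich in types I and III, and type IV collagen lies around vessels and sinuses. Types II, IX and XI are best known from cartilage, where they share the same fibres.

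Values are log2 intensities unless stated otherwise, and those of the knockout mice are listed in the order Mim1-5, Mim1-6, Mim2-2, Mim2-3 and those of the wild type from WT-1 to WT-4. Median intensity was 112.1 to 119.1 on the linear scale, and a pool of random probes, the background level, read 4.94 to 5.24. The arrays of Mim2-2 and Mim2-3 stood apart. They correlated at r = 0.811 to 0.877 with the other 6 over 44170 features, where those 6 correlated at 0.911 to 0.943 with each other. Among the knockout mice the Mim2 name coincides with the male label, so name and sex cannot be told apart. Xist, the transcript that silences an X chromosome in females, averaged 9.95 on arrays labelled male and 10.13 on arrays labelled female, which does not separate the labels. Ddx3y, a gene of the Y chromosome, did not separate them either, with 7.76 on arrays labelled male and 7.82 on those labelled female. It read 8.83, 8.39, 8.78 and 8.66 in the knockout, against 7.25, 7.33, 6.82 and 6.26 in the wild type. Males and females below are therefore the labelled sexes only. BIC, the precursor of miR-155, read 7.51, 5.37, 5.28 and 5.46 in the knockout, against 5.27, 4.84, 4.85 and 5.63 in the wild type. No source used here places its probes inside or outside the deletion, so it does not check the genotype. Markers of B cells, T cells, red pulp macrophages and red cells were all above the random probes on all 8 arrays, as were 7 of 8 markers of mammary luminal epithelium and milk. The mean of the mammary list was 11.18, 10.86, 8.01 and 9.57 in the knockout, against 12.27, 12.04, 12.02 and 12.41 in the wild type.

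Most collagen transcripts were measurable in these samples. Of the 35 genes, 30 lay above the random probes on all 8 arrays, which is 85.7%, where 65.4% of all named genes did, and 0 lay above them on fewer than 4 arrays. Within a gene, the spread between the lowest and the highest array ran from 0.87 for Col4a1 to 7.34 for Col11a1, with a median of 2.31. The median SD was 0.75 among the knockout and 0.63 among the wild-type arrays for collagens, against 0.60 and 0.43 for all named genes. Over the 35 genes, the Mim2 arrays correlated with the other 6 at r = 0.429 to 0.811 and with each other at 0.593, and the other 6 correlated at 0.819 to 0.921. These correlations describe 35 genes on shared arrays and carry no test.

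**Figure D1:**
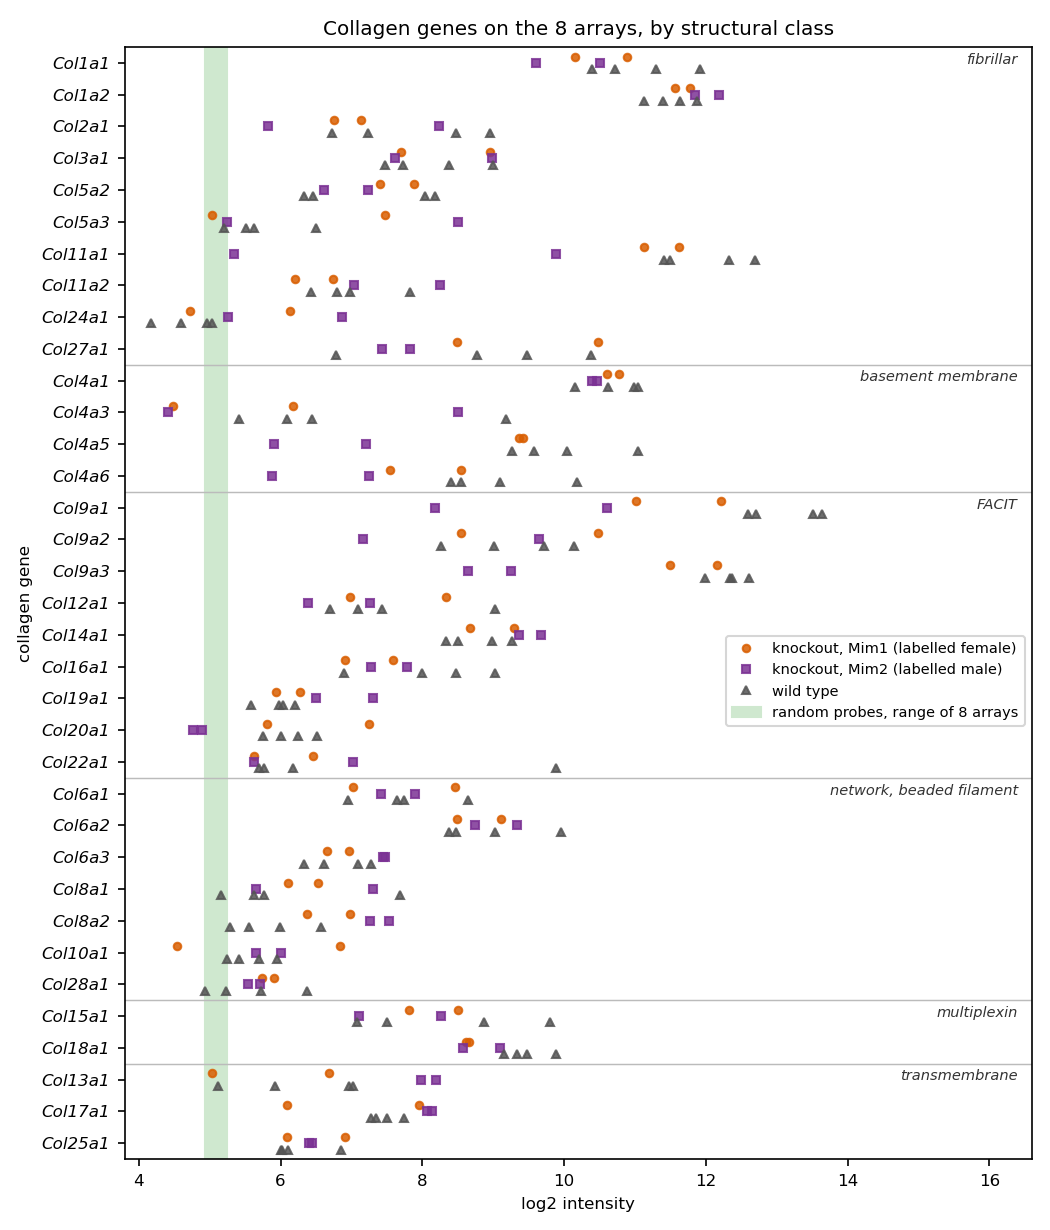
Log2 intensity of each of the 35 collagen genes on the 8 arrays, with 1 row per gene, grouped by structural class. Circles and squares are the Mim1 and Mim2 knockout mice, triangles the wild type, and the shaded band is the range of the random probes. The 2 Mim2 squares lie left of all other points for Col4a5, Col4a6, Col9a1, Col9a3, Col11a1 and Col20a1.

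The comparison of knockout with wild type asked which collagen transcripts differ when miR-155 is missing. No collagen gene passed the threshold of 0.05 in limma, a linear model with labelled sex as a further term, after adjustment over all features. The smallest adjusted p of a collagen was 0.266, and 0.0% of all named genes passed. With trend and robust variance estimates 12 named genes passed, and 0 collagens. At an unadjusted p under 0.05 there were 8 of 35 collagens, or 22.9%, against 14.3% of all named genes. Of these, 2 were higher in the knockout (5.71%, against 7.7% of all genes) and 6 were lower (17.1%, against 6.61%). Col8a2 and Col24a1 were the higher ones, and Col9a1, Col9a3, Col4a6, Col4a5, Col18a1 and Col11a1 the lower ones.

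Differences ran both ways over the family. The median difference, knockout minus wild type, was -0.05 over the 35 collagens, with 16 higher and 19 lower, and 0.06 over all named genes. By class the median was 0.04 for fibrillar collagens (6 higher, 4 lower), -1.32 for basement membrane collagens (0 higher, 4 lower) and -0.04 for the others (10 higher, 11 lower). Among the others, FACITs had a median of -0.44 with 2 higher and 7 lower, and network and beaded filament collagens one of 0.18 with 5 higher and 2 lower. Without both Mim2 arrays, 1 of 35 collagens (2.86%) had an unadjusted p under 0.05, namely Col9a1, which was lower, where 3.41% of all genes were lower and 2.76% higher at that level. With labelled sex in the model, that fit compares only mice labelled female, 2 knockout against 2 wild-type arrays. Its differences are therefore the female differences given below and no separate evidence, and fewer arrays make it less able to detect a difference. The median of the basement membrane collagens was then -0.51, and it was -0.75 without Mim2-2 alone and -0.77 without WT-4 alone.

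**Figure D2:**
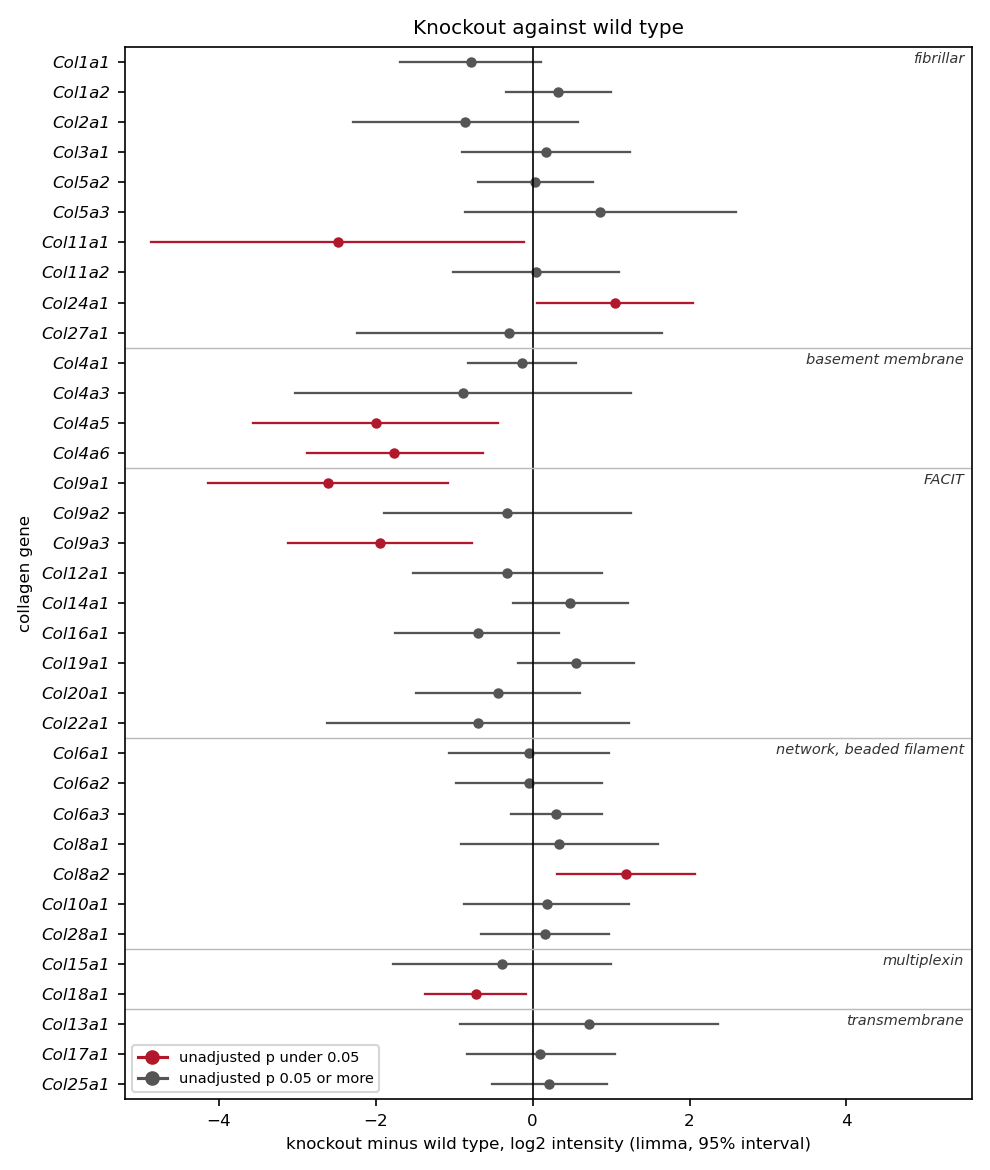
Knockout minus wild type difference in log2 intensity for each collagen gene from the additive limma fit, with 95% intervals, grouped by structural class. The 8 intervals that exclude 0 before adjustment belong to Col11a1, Col24a1, Col4a5, Col4a6, Col9a1, Col9a3, Col8a2 and Col18a1, and none passed adjusted over all features.

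For the fibrillar collagens of reticular fibres the arrays of both genotypes overlapped, and the brightest feature of no chain of types I, III or V had an unadjusted p under 0.05. Col1a1, the main chain of type I collagen, read 10.16, 10.89, 9.60 and 10.51 in the knockout, against 10.72, 10.39, 11.91 and 11.30 in the wild type, a difference of -0.79 (SE 0.40, limma adjusted p = 0.411). Its partner chain Col1a2 read 11.56, 11.77, 11.84 and 12.18 in the knockout, against 11.40, 11.63, 11.87 and 11.13 in the wild type, a difference of 0.33 (SE 0.30, adjusted p = 0.642). The highest type I values were thus in WT-3 for Col1a1 and in Mim2-3 for Col1a2, and both genotypes overlapped for both chains. The 2 other Col1a2 features differed by -0.05 and -1.36, the second with an unadjusted limma p of 0.0345 (adjusted p = 0.334), so the 3 features of this gene did not share a direction.

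Col3a1, the chain of type III collagen and of reticular fibres, read 7.70, 8.96, 7.62 and 8.98 in the knockout, against 7.73, 8.38, 9.0 and 7.48 in the wild type. The 95% interval of its difference of 0.17 ran from -0.90 to 1.24. Col5a2, a type V chain that helps to start type I fibres, read 7.41, 7.88, 6.61 and 7.23 in the knockout, against 8.18, 6.46, 8.04 and 6.33 in the wild type, where the 2 mice labelled female were the higher ones. Its difference was 0.03 (95% interval -0.70 to 0.77). Col3a1 and Col5a2 are neighbours on chromosome 1 of build MM9, 26784 bases apart. Col5a3, another type V chain, differed by 0.86 (SE 0.76), with 8.51 in Mim2-2 and 7.48 in Mim1-5 and 6.5 or less on the other 6 arrays.

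The type II and XI chains, which build cartilage fibres together, differed among themselves. Col11a1, the first chain of type XI, read 11.13, 11.62, 5.35 and 9.89 in the knockout, against 11.50, 12.69, 12.32 and 11.41 in the wild type. Mim2-2 stood near the random probes and Mim2-3 was the second lowest, while the Mim1 arrays overlapped with the wild type. The mean was 9.50 ± 2.86 in the knockout, against 11.98 ± 0.63 in the wild type (SD, n = 4 each), a difference of -2.48, or 5.6-fold lower (SE 1.05 on the log2 scale, limma adjusted p = 0.349). Without Mim2-2 the difference was -1.19, and without both Mim2 arrays it was -0.54. A second Col11a1 feature differed by -1.47, which joined -3.76 between mice labelled male and 0.83 between mice labelled female. Col11a2 read 6.20 to 8.25 in the knockout, against 6.43 to 7.83 in the wild type, a difference of 0.04. Col2a1, the chain of type II collagen, read 6.76, 7.14, 5.83 and 8.24 in the knockout, against 6.72, 8.47, 8.96 and 7.24 in the wild type, a difference of -0.86 (SE 0.63, adjusted p = 0.567).

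The remaining fibrillar members, Col24a1 and Col27a1, belong to a separate branch of fibrillar collagens known from developing skeletal tissue. Col24a1 read 4.72, 6.14, 5.26 and 6.87 in the knockout, against 4.18, 4.97, 4.59 and 5.04 in the wild type. Its difference of 1.05 (SE 0.44, limma adjusted p = 0.344) is inexact in size, since 3 knockout arrays and 1 wild-type array exceeded the random probes. Col27a1 read 10.48, 8.49, 7.82 and 7.43 in the knockout, against 6.78, 9.48, 8.77 and 10.38 in the wild type. Mim1-5 and WT-4 were high and WT-1 low, so the difference of -0.30 joined -2.30 between mice labelled male and 1.71 between mice labelled female.

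Among the basement membrane collagens, all 4 differences were negative, and those of Col4a5 and Col4a6 had an unadjusted p under 0.05. Col4a1, which with its partner chain forms the type IV net of nearly all basement membranes, read 10.61, 10.77, 10.47 and 10.40 in the knockout, against 10.16, 10.98, 11.04 and 10.62 in the wild type. Its difference was -0.14 (SE 0.31, limma adjusted p = 0.870), and it varied least of all 35 members over the arrays. Col4a3, a chain best known from kidney glomeruli, read 4.49, 6.17, 4.41 and 8.51 in the knockout, against 6.45, 6.09, 5.42 and 9.18 in the wild type, a difference of -0.89 (SE 0.95). In Mim1-5 and Mim2-2 it was under the random probes, so the size of its difference is inexact.

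Col4a5 and Col4a6 encode chains that assemble together in basement membranes of epithelia and smooth muscle. Col4a5 read 9.42, 9.37, 5.91 and 7.21 in the knockout, against 9.57, 9.26, 10.04 and 11.04 in the wild type. The 2 Mim2 arrays lay below all others and the Mim1 arrays within the wild-type range. The difference was -2.0, or 4.01-fold lower (SE 0.69 on the log2 scale, limma adjusted p = 0.299), and it was -1.33 without WT-4 and -0.41 without both Mim2 arrays. Col4a6 read 8.54, 7.54, 5.88 and 7.25 in the knockout, against 8.54, 9.10, 10.18 and 8.40 in the wild type, a difference of -1.76, or 3.38-fold lower (SE 0.50, adjusted p = 0.269). Again the Mim2 arrays were lowest, and Mim1-6 also lay below every wild-type array, with differences of -2.19 in males and -1.32 in females. A second Col4a6 feature, which spans a shorter stretch of the gene, read 5.67 to 6.26 in the knockout, against 5.12 to 5.52 in the wild type and differed the other way, by 0.65, so the result for Col4a6 rests on 1 of its 2 features.

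Col4a5 and Col4a6 lie head to head on the X chromosome, and in MM9 their features are 1585 bases apart, Col4a6 at chrX:137599945-137908517 and Col4a5 at chrX:137910103-138091413. In RefSeq on build GRCm38.p6 their start sites lie 1343 bases apart on opposite strands. The windows around both start sites, 250 bases before to 50 after, are shown because the Mim2 arrays were lowest for both of these neighbours. They read 5' to 3' along each gene's own strand, Col4a5 at chrX:141475169-141475468 on the plus strand and Col4a6 at chrX:141474027-141474326 on the minus strand. Capitals mark matches, on either strand, to 4 short motifs. These were TATAAA, known as the TATA box, then CCAAT, the box of that name, then GGGCGG, known as the GC box, and ACAANG, the core bound by SOX factors. No matches overlapped in the windows shown.
Col4a5: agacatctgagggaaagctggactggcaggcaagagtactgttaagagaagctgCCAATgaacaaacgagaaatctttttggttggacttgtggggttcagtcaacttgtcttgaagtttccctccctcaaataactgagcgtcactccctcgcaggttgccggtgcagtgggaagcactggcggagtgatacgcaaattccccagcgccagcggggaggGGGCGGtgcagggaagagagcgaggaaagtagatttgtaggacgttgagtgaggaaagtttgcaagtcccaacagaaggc
Col4a6: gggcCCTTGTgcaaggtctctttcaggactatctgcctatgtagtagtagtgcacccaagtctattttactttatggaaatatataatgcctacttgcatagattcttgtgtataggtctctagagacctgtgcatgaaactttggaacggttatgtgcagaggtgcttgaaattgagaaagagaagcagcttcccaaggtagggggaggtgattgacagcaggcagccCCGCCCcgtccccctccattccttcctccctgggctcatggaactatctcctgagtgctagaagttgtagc
Each window holds 1 GC box and no TATAAA. Over the 30 promoter entries of 27 collagen genes, a GC box was in 53.3%, a CCAAT box in 33.3%, TATAAA in 16.7% and the SOX core in 30.0%. Over all 32851 promoters of the table the shares were 35.7%, 37.4%, 13.6% and 41.2%. A match describes letters in a window and is not a site that was shown to be bound.

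A FACIT had the largest difference by size among the 35 members. Col9a1, the first chain of type IX collagen, which coats type II fibres, read 12.22, 11.01, 8.18 and 10.61 in the knockout, against 12.59, 13.64, 13.51 and 12.71 in the wild type. The highest knockout array, Mim1-5, stood below the lowest wild-type array, WT-1, and Mim2-2 was lowest. The mean was 10.50 ± 1.69 in the knockout, against 13.11 ± 0.54 in the wild type (SD, n = 4 each), a difference of -2.61, or 6.10-fold lower (SE 0.68 on the log2 scale, limma unadjusted p = 0.00383, adjusted p = 0.266). Groups without overlap occurred for 2 of 35 collagens, Col9a1 and Col18a1, both lower in the knockout (5.71%), where 2.55% of all named genes were lower without overlap. None of the 35 was higher in that way, where 5.27% of all named genes were. Without both Mim2 arrays Col9a1 differed by -1.44 (SE 0.58, unadjusted p = 0.0424, adjusted p = 0.806).

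Col9a1 has 2 start sites, the first used in cartilage and the second giving a shorter chain that is known from the eye. The arrays hold 2 Col9a1 features, with 5' ends 17508 bases apart in MM9, and both were lowest in Mim2-2. The second feature, which starts further upstream, read 12.32, 10.44, 4.94 and 10.91 in the knockout, against 11.79, 12.53, 12.62 and 12.25 in the wild type, a difference of -2.64. Here Mim1-5 overlapped with the wild type and Mim2-2 lay at the level of the random probes. The features share most of their span, chr1:24202068-24259184 and chr1:24184560-24259513 in MM9, so they need not measure separate transcripts. The windows of both RefSeq start sites, 17593 bases apart in GRCm38.p6, are shown because the 5' ends of the features lie about as far from each other. They are at chr1:24177360-24177659 and chr1:24194953-24195252, both on the plus strand, with capitals marking the same motifs.
Col9a1 upstream start: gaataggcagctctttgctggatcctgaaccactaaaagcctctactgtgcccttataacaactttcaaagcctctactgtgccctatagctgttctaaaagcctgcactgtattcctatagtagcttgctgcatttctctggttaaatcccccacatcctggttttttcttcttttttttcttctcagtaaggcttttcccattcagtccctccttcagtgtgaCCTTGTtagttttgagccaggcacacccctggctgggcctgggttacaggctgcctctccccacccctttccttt
Col9a1 downstream start: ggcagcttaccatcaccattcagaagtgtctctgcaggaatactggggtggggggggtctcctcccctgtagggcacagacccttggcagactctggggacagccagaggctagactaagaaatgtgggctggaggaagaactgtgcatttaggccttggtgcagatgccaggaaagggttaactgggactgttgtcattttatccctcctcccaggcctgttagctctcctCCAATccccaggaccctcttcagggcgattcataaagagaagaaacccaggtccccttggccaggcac
The upstream window holds 1 SOX core and the downstream window 1 CCAAT box, and neither holds a GC box or TATAAA.

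The other chains of type IX did not all go with Col9a1. Col9a3 read 12.15, 11.49, 8.64 and 9.25 in the knockout, against 12.34, 11.99, 12.61 and 12.37 in the wild type. The Mim2 arrays stood well below the rest, Mim1-6 was next, and Mim1-5 lay within the wild-type range. The difference was -1.95, or 3.85-fold lower (SE 0.52 on the log2 scale, limma adjusted p = 0.266), and a second Col9a3 feature differed by -1.47. Col9a2 read 8.55, 10.48, 7.17 and 9.65 in the knockout, against 8.26, 9.72, 10.14 and 9.01 in the wild type, where both genotypes overlapped and the difference was -0.32 (95% interval -1.89 to 1.25). Of the 3 type IX chains, Col9a1 and Col9a3 are among the 6 collagens counted above as lower at an unadjusted p under 0.05 (6.61% of all named genes were), and Col9a2 is not.

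Of the 6 other FACITs, Col14a1 is known from skin and tendon fibres. It read 9.29, 8.67, 9.37 and 9.68 in the knockout, against 8.34, 8.50, 8.99 and 9.26 in the wild type, a difference of 0.48 (SE 0.32, limma adjusted p = 0.530), with both Mim2 arrays above the rest. Its second feature differed by -0.44. Col19a1, a neighbour of Col9a1 at 27423 bases in MM9, read 5.94 to 7.30 in the knockout, against 5.58 to 6.20 in the wild type and differed by 0.55, so the neighbours had opposite signs. Col12a1, a FACIT of dense connective tissue, Col16a1, Col20a1 and Col22a1 differed by -0.32, -0.70, -0.44 and -0.70. The Mim2 arrays read 4.89 and 4.77 for Col20a1, at or under the random probes, and Col22a1 read 7.02 or less on the knockout arrays, against 9.88 in WT-3 and 6.17 or less in the other wild-type mice.

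Among network and beaded filament collagens, the 3 chains of type VI had differences between -0.05 and 0.30. Type VI forms beaded microfibrils around many cell types. Col6a1 read 7.02, 8.46, 7.42 and 7.89 in the knockout, against 6.95, 7.65, 8.64 and 7.74 in the wild type, a difference of -0.05 (95% interval -1.06 to 0.97). Col6a2, which lies 86244 bases from Col6a1 on chromosome 10 of MM9, read 8.49, 9.11, 9.34 and 8.74 in the knockout, against 8.48, 9.02, 9.95 and 8.38 in the wild type, a difference of -0.04 (95% interval -0.97 to 0.89). WT-3 was the highest array for both of these neighbours. Col6a3 read 6.65, 6.96, 7.45 and 7.47 in the knockout, against 6.33, 7.10, 6.61 and 7.27 in the wild type, a difference of 0.30 (SE 0.26, limma adjusted p = 0.621). Both genotypes overlapped for all 3 chains.

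Type VIII collagen makes the hexagonal net of Descemet's membrane in the eye and is also made by vessel walls. Col8a2 read 6.38, 6.98, 7.53 and 7.26 in the knockout, against 5.55, 5.99, 6.57 and 5.29 in the wild type. Every knockout array except Mim1-5 lay above every wild-type array, and the Mim2 arrays were highest. The difference was 1.19, or 2.28-fold higher (SE 0.39 on the log2 scale, limma adjusted p = 0.291), and a second feature differed by 0.32. Its partner Col8a1 read 5.65 to 7.31 in the knockout, against 5.16 to 7.68 in the wild type, a difference of 0.34. Col10a1, the collagen of hypertrophic cartilage, and Col28a1 differed by 0.18 and 0.16.

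Both multiplexins, basement membrane proteoglycans that carry long sugar chains, had negative differences. Col18a1, the source of the fragment endostatin, read 8.66, 8.61, 9.09 and 8.58 in the knockout, against 9.47, 9.33, 9.15 and 9.89 in the wild type. The groups did not overlap, though Mim2-2 and WT-3 were only a little apart. The mean was 8.73 ± 0.24 in the knockout, against 9.46 ± 0.32 in the wild type (SD, n = 4 each), a difference of -0.72, or 1.65-fold lower (SE 0.28 on the log2 scale, limma adjusted p = 0.329). The difference was -0.77 between mice labelled male and -0.68 between mice labelled female. Col15a1 read 7.81, 8.51, 8.26 and 7.11 in the knockout, against 7.08, 7.50, 8.87 and 9.80 in the wild type, a difference of -0.39 (SE 0.62, adjusted p = 0.805).

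Transmembrane collagens are anchored in the cell surface. Col13a1, a chain found at cell contacts and at the neuromuscular junction, read 6.69, 5.03, 8.19 and 7.98 in the knockout, against 6.96, 5.12, 7.02 and 5.92 in the wild type. Both Mim2 arrays lay above all others, Mim1-5 lay within the wild-type range and Mim1-6 was lowest, which gave a difference of 0.72 (SE 0.73, limma adjusted p = 0.681). Leaving out 1 array moved it between 0.19, without WT-2, and 1.42, without Mim1-6, and without both Mim2 arrays it was -1.13. On neither of the other Col13a1 features did both Mim2 arrays lie above the rest. Col17a1, a component of the hemidesmosomes of epithelia, read 6.09 to 8.14 in the knockout, against 7.28 to 7.74 in the wild type and differed by 0.10. Col25a1, a transmembrane collagen of neurons, differed by 0.21.

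The genotype difference was then compared between the labelled sexes, which among knockout mice is also a comparison of Mim2 with Mim1 arrays. On the brightest features no collagen passed the interaction term in limma, with a smallest adjusted p of 0.171, and 0.0% of all named genes passed. At an unadjusted p under 0.05 there were 4 of 35 collagens (11.4%), against 13.6% of all named genes. The male difference was above the female one for 1 (2.86%, against 5.93%) and below it for 3 (8.57%, against 7.62%). Col13a1 differed by 2.57 in males and -1.13 in females (interaction 3.69, SE 0.81, adjusted p = 0.171). Its other features had interactions of 0.06 and 0.30, so the result for Col13a1 rests on 1 of its 3 features. Col9a3 differed by -3.23 in males and -0.66 in females (interaction -2.57, SE 0.59, adjusted p = 0.180). For Col27a1 the values were -2.30 in males and 1.71 in females (interaction -4.01, adjusted p = 0.236). Its other features had interactions of -0.20, -0.69 and -2.53, none at an unadjusted p under 0.05. For Col4a5 the values were -3.59 in males and -0.41 in females (interaction -3.18, adjusted p = 0.237). With trend and robust variance estimates Col9a3 alone among the brightest features of collagens passed the interaction, with 363 named genes passing in all.

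Col11a1 and Col9a1 had male differences of -4.43 and -3.78 and female differences of -0.54 and -1.44, with an interaction adjusted p of 0.405 and 0.439. The second Col11a1 feature had an interaction of -4.59 (SE 0.71, limma adjusted p = 0.162), and the second Col9a1 feature one of -3.64 (adjusted p = 0.536). Col18a1 and Col24a1 lay at the other end, since their differences were nearly equal in both sexes. Counting arrays directly, both Mim2 arrays lay below the other 6 for 6 collagens, Col4a5, Col4a6, Col9a1, Col9a3, Col11a1 and Col20a1 (17.1%, against 14.4% of all named genes). Both lay above the other 6 for another 6, Col6a3, Col8a2, Col13a1, Col14a1, Col17a1 and Col19a1 (17.1%, against 16.3%). The shares were near those of all named genes in both directions.

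**Figure D3:**
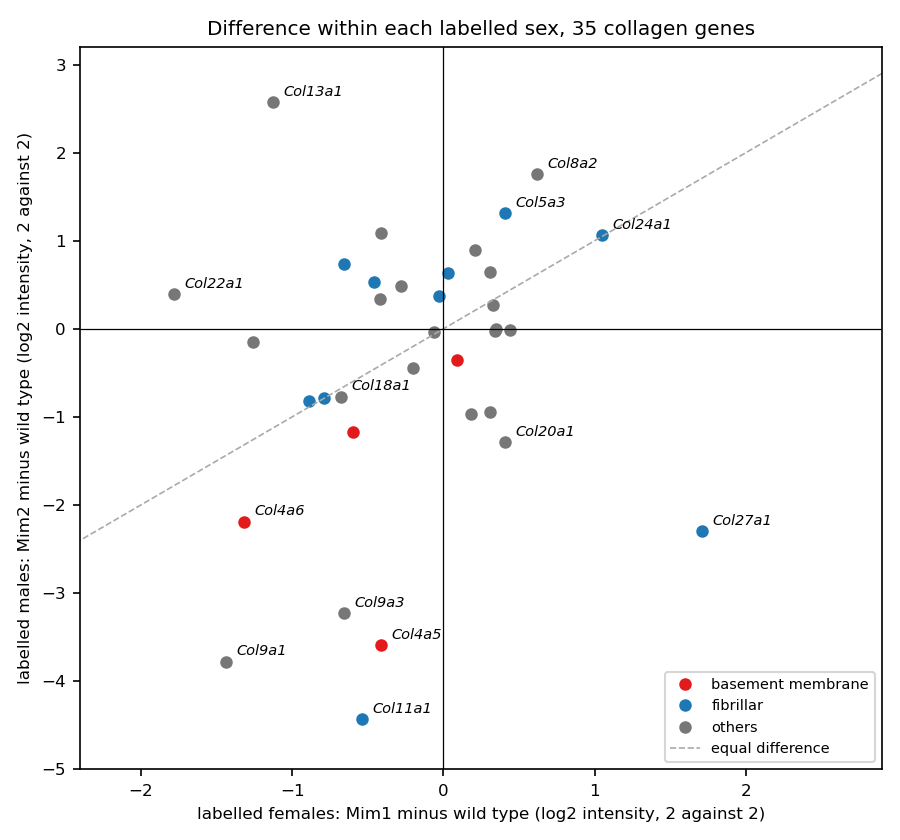
Knockout minus wild type difference of the 35 collagen genes between mice labelled female (horizontal axis, Mim1 against WT-1 and WT-3) and between mice labelled male (vertical axis, Mim2 against WT-2 and WT-4), in log2 intensity. Points on the dashed line have equal differences; Col9a1, Col9a3, Col4a5 and Col11a1 lie below -3 on the vertical axis and between -1.44 and -0.41 on the horizontal one.

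Markers of other cell types differed between the same arrays as these collagens. In RNA of a whole organ, fewer cells of a type and less RNA per cell cannot be told apart. Of 5 cartilage markers, all were measured and 3 lay above the random probes on every array, and the mean of the list was 9.38, 8.77, 6.52 and 7.30 in the knockout, against 9.19, 9.43, 10.13 and 9.38 in the wild type. Sox9, the gene of the cartilage factor, which many epithelia also express, read 11.10, 10.84, 6.88 and 6.20 in the knockout, against 11.00, 11.03, 10.83 and 11.95 in the wild type. Comp, a cartilage matrix protein that binds collagens II and IX, read 12.59, 13.58, 6.26 and 10.73 in the knockout, against 12.17, 13.41, 13.75 and 13.95 in the wild type. The Mim2 arrays were thus lowest for Sox9 and Comp, as they were for Col9a1, Col9a3 and Col11a1. Acan, the core protein of aggrecan and a defining cartilage gene, read 7.01, 6.11, 8.22 and 6.6 in the knockout, against 6.88, 6.02, 7.14 and 6.36 in the wild type, so its highest value was in Mim2-2. Matn1, a cartilage matrilin, read 5.05 to 6.22 in the knockout, against 4.45 to 7.0 in the wild type, near the random probes on several arrays. Cnmd, the cartilage protein chondromodulin, read 11.15, 8.2, 5.02 and 7.31 in the knockout, against 10.03, 11.44, 11.91 and 10.17 in the wild type, lowest again on the Mim2 arrays.

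The mammary list was low on the same 2 arrays, with Elf5, the factor of milk-producing cells, at 11.48, 11.40, 7.60 and 8.11 in the knockout, against 11.80, 11.48, 11.46 and 12.09 in the wild type. Krt8, a keratin of luminal epithelium, read 12.35, 12.32, 8.42 and 8.80 in the knockout, against 13.00, 12.28, 11.91 and 12.43 in the wild type. All 8 mammary markers had negative differences, with a median of -3.84 between mice labelled male and -0.68 between mice labelled female. Fibroblast markers ran the other way, with list means of 8.67, 8.49, 9.60 and 9.35 in the knockout, against 8.14, 8.32, 8.16 and 8.13 in the wild type, and 9 of 10 differences positive. For 4 of the 10, Ccl19, Ccl21a, Cxcl12 and Cxcl13, all knockout arrays lay above all wild-type arrays, where 5.27% of all named genes did. Dpt and Dcn were highest on the Mim2 arrays, while their Mim1 arrays overlapped with the wild type. Endothelial markers gave means of 8.53 to 9.34 in the knockout, against 8.13 to 8.58 in the wild type. Markers of smooth muscle and myoepithelium, taken as 1 list, gave means of 7.43, 7.72, 8.39 and 8.76 in the knockout, against 7.02 to 7.62 in the wild type, with all 6 differences positive. Adipocyte markers averaged 10.99 and 10.42 on the Mim2 arrays and 7.37 and 7.43 on the Mim1 arrays, against 7.60 to 7.82 in the wild type. Other lists were higher on Mim1 and Mim2 arrays alike. B cell markers averaged 10.24 to 11.04 in the knockout, against 8.97 to 9.31 in the wild type, and T cell markers 8.73 to 9.63 in the knockout, against 8.02 to 8.64 in the wild type. Red pulp macrophage markers averaged 8.46 to 9.12 in the knockout, against 7.37 to 8.26 in the wild type. The 6 exocrine pancreas markers, of which 2 lay above the random probes on every array, averaged 6.44 to 7.69 in the knockout, against 5.26 to 5.54 in the wild type. At an unadjusted limma p under 0.05 all 6 were higher, where 7.7% of all named genes were. So were 5 of 5 B cell, 3 of 4 T cell, 1 of 4 red pulp macrophage and 5 of 10 fibroblast markers. The same held for 2 of 7 endothelial, 2 of 6 smooth muscle and myoepithelium and 3 of 7 adipocyte markers. Of the mammary markers 7 of 8 were lower at that level, where 6.61% of all named genes were. Red cell markers were not higher on both pairs. They averaged 12.83 and 12.86 on the Mim1 arrays and 13.41 and 13.86 on the Mim2 arrays, against 13.39 to 13.64 in the wild type. Of these 4 markers 1 had a positive and 3 a negative difference, with a median of -0.33. The part of these lists in the collagen differences was not tested.

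**Figure D4:**
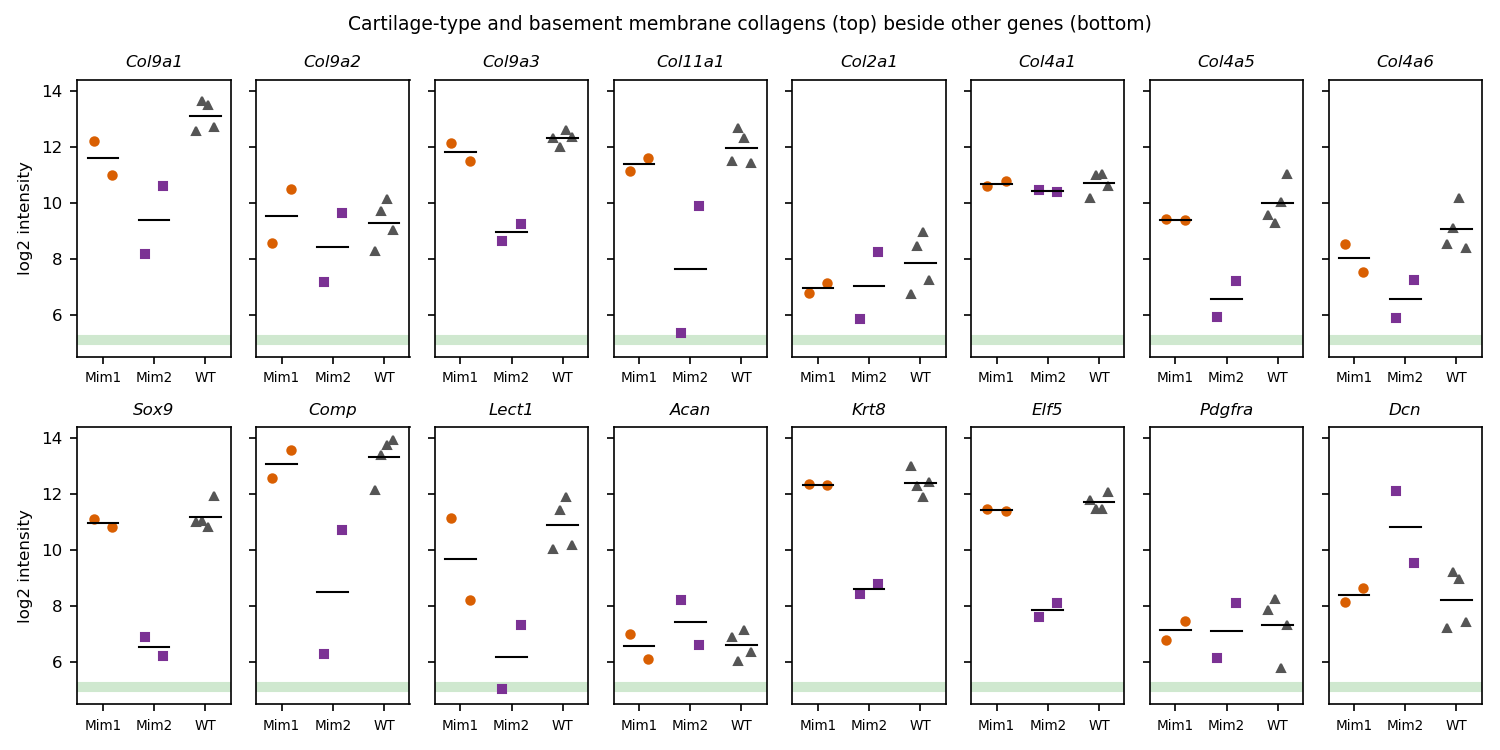
Log2 intensity on the 8 arrays of 8 collagen genes of cartilage fibres and basement membranes (top) and of 8 marker genes (bottom), with the Mim1 and Mim2 knockout mice left of the wild type (WT), a bar at each mean and the range of the random probes shaded. Lect1 is the array's name for the cartilage gene Cnmd. The Mim2 points lie below the others for Col9a1, Col9a3, Col11a1, Col4a5 and Col4a6 and for Sox9, Comp, Lect1, Krt8 and Elf5, and not for Col4a1 or Acan.

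Enzymes and chaperones that make collagen were next compared. Of 24 genes listed for collagen biosynthesis and processing, 19 were measured, and none passed in limma after adjustment. At an unadjusted p under 0.05, 1 was higher and 4 were lower, where 7.7% of all named genes were higher and 6.61% lower, and the list median was -0.26. These 2 shares are the background for the lists that follow as well. The lysyl hydroxylase genes, whose enzymes prepare collagen chains for crosslinks, were all lower. Plod1 read 10.43, 11.28, 9.17 and 10.55 in the knockout, against 11.92, 12.14, 12.47 and 11.72 in the wild type, a difference of -1.71 (SE 0.40, adjusted p = 0.262). Plod2 read 7.52, 6.52, 7.30 and 6.98 in the knockout, against 7.89, 8.24, 9.05 and 8.63 in the wild type (-1.37, SE 0.37, adjusted p = 0.266). Plod3 differed by -0.91 (SE 0.28, adjusted p = 0.281). For all 3 Plod genes the groups did not overlap, where 2.55% of all named genes were lower in that way. The differences were -2.08 in males and -1.34 in females for Plod1, and -1.29 in males and -1.45 in females for Plod2. Pcolce2, an enhancer of procollagen cleavage, read 7.25, 6.74, 9.11 and 8.55 in the knockout, against 6.63, 5.22, 6.23 and 4.91 in the wild type, a difference of 2.16 (SE 0.60, adjusted p = 0.268), with all knockout above all wild-type arrays, where 5.27% of all named genes were.

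Of 18 genes listed for crosslinking and fibril partners, 17 were measured, with 2 higher and 1 lower at an unadjusted p under 0.05 and a median of 0.23. That is 3 of 17, near the 14.3% of all named genes in either direction. Dpt, the fibril-binding protein dermatopontin, read 8.05, 7.33, 10.83 and 9.89 in the knockout, against 7.59, 7.22, 6.95 and 7.05 in the wild type, a difference of 1.82 (SE 0.57, limma adjusted p = 0.286). The Mim2 arrays were the high ones. Prelp, a small proteoglycan that binds collagen to basement membranes, differed by 1.67, and Tnc, the matrix protein tenascin C, by -1.17. Of 13 collagen breakdown genes, all measured, 1 was higher and 0 were lower at that level, with a median of 0.15, and 1 of 13 is not above the 14.3% of all named genes. The gene was Mmp3, the metalloproteinase stromelysin, which read 6.65, 6.54, 8.53 and 8.21 in the knockout, against 6.72, 6.00, 5.48 and 7.12 in the wild type, a difference of 1.15 (SE 0.44, adjusted p = 0.317).

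Among 10 collagen receptors, all measured, 1 was higher and 2 were lower at an unadjusted p under 0.05, against 7.7% and 6.61% of all named genes, with a median of 0.09. Itgb1, the beta chain shared by the collagen-binding integrins, read 11.62, 11.84, 10.49 and 10.76 in the knockout, against 12.35, 11.88, 12.87 and 11.80 in the wild type, a difference of -1.05 (SE 0.28, limma adjusted p = 0.266). Ddr1, an epithelial receptor kinase for collagen, read 11.70, 12.02, 7.71 and 8.39 in the knockout, against 12.11, 12.29, 12.18 and 12.37 in the wild type. Its difference of -2.29 (SE 0.72, adjusted p = 0.285) was -4.28 in males and -0.29 in females, and the groups did not overlap, Mim1-6 being just below WT-1. Lair1, an inhibitory collagen receptor of immune cells, read 8.84, 8.56, 8.15 and 9.48 in the knockout, against 8.25, 8.01, 7.94 and 7.36 in the wild type, a difference of 0.87 (SE 0.37, adjusted p = 0.346).

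Partners of type IV collagen in basement membranes were measured for 13 of 15 listed genes. At an unadjusted p under 0.05, 1 was higher and 6 were lower, against 7.7% and 6.61% of all named genes, with a median of -0.56. Without both Mim2 arrays 2 of the 13 had such a p. Lamb2, a laminin beta chain, read 11.82, 10.55, 8.98 and 8.93 in the knockout, against 12.26, 12.06, 12.47 and 12.32 in the wild type, a difference of -2.21 (SE 0.47, limma adjusted p = 0.262). The groups did not overlap, and the Mim2 arrays were lowest, as they were for Col4a5 and Col4a6. Lama4, the laminin alpha chain of vessels, differed by -1.49 (SE 0.46, adjusted p = 0.281). Lama2, the laminin alpha chain of muscle, differed the other way, at 7.13, 6.67, 6.83 and 6.81 in the knockout, against 6.42, 5.39, 5.41 and 5.82 in the wild type (1.1, SE 0.32, adjusted p = 0.273). The Mim1 and Mim2 arrays overlapped for Lama2.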

How the data were processed

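The deposited table of each array gives linear intensity values, made by the authors with RMA per the submitters' processing notes, which corrects background, normalizes between arrays and summarises probes. The sources used here name no version of it. Per the file headers, coordinates refer to mouse build MM9. The deposited tables also hold a score column for the standard error, whose making is not described and which was not tested. A deposited table of the whole series holds 21856 of the 44170 features with the same intensity values and served as an alternative.

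Values were taken to log2 with no second normalization, and the entry of 5000 random probes gave the background level. Differences were fitted over all 44170 features in limma 3.58.1 (R 4.3.3, functions lmFit and eBayes). Tests were two-sided at a threshold of 0.05 after Benjamini-Hochberg adjustment, using genotype and labelled sex, or also their interaction. The script was tested on simulated data. Shares of all named genes used the brightest feature of each of the 24203. Current symbols and promoter sequences came from RefSeq tables of GRCm38.p6, in which all 35 collagen genes matched by gene number. No p was computed for a class or list.

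The members, classes and gene lists were chosen with earlier results of these data known. Values on all arrays were given for 12 named collagens of connective tissue and basement membrane (of which Col4a2 was not analysed here), for those at an unadjusted p under 0.05, and for the 4 with the smallest interaction p, which came to 20 genes, with Col2a1, Col4a3 and Col9a2 added as partner chains after their values were seen. Of each pathway list, up to 3 members per direction with the smallest p were named, and 1 gene that this rule takes is not reported here. Alternatives covered normalization, the feature of a gene, dim values, the variance model, covariates, array weights, the source of values and leaving out arrays. The number of arrays limits the precision, and p-values measure the spread between these mice.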

Additional observations from a re-analysis of the deposited data

Results flagged for a closer look

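Of 40 groups of 4 arrays looked at, the knockout and wild-type groups of 20 collagens, 1 held an array far from its own group. Col18a1 read 9.09 in Mim2-2, the highest knockout value, with a gap of 0.43 to the next one, which is 0.836 of the range of the group. Chance alone sets apart about 1 in 20 such groups. Without that array, knockout replicate 3, all other knockout values of Col18a1 lay at 8.66 or less, against 9.15 or more in the wild type.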

How the results depend on the processing

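No collagen passed after adjustment in the additive fit under any alternative, and its smallest adjusted p ran from 0.114 with trend and robust variance estimates to 0.806 without both Mim2 arrays. Col4a5, Col4a6, Col8a2, Col9a1 and Col9a3 had an unadjusted p under 0.05 with all arrays and without each array in turn (9 of 9 fits), Col11a1 in 6, Col18a1 in 4 and Col24a1 in 3. Collagens higher at that level numbered 1 with dim values floored at the random probes, where 8.64% of all named genes were. In the table of the series, which holds 24 of the 35, there were 0, where 10.9% of its named genes were higher. Without both Mim2 arrays 0 were higher and 1 was lower, where 2.76% of all named genes were higher and 3.41% lower. That fit compares only the mice labelled female, so its differences are the female ones. Leaving out 1 array gave 1 to 2 higher and 5 to 6 lower. Of all named genes, 4.58% to 8.67% were then higher and 3.85% to 7.88% lower. Without both Mim2 arrays the median of basement membrane collagens was -0.51, and leaving out 1 array gave -1.80 to -0.75.

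Differences that changed sign were Col6a2 (0.05 with quantile normalization), Col5a2 and Col27a1 (-0.10 and 0.36 with array weights), and Col1a2 and Col3a1 (-0.36 and -0.09 with the mean over all features). Without both Mim2 arrays those of Col3a1 (-0.03), Col4a1 (0.09), Col5a2 (-0.46), Col8a1 (-0.41), Col9a2 (0.31), Col11a2 (-0.66), Col13a1 (-1.13), Col15a1 (0.18), Col17a1 (-0.28), Col20a1 (0.41) and Col27a1 (1.71) changed sign, which were all that did among the 35 collagens. Leaving out 1 array moved Col3a1 from -0.14 to 0.46, Col5a2 from -0.19 to 0.23, Col6a1 from -0.38 to 0.29, Col6a2 from -0.26 to 0.33, Col15a1 from -0.86 to 0.18 and Col27a1 from -1.10 to 0.28. With no change of sign it moved Col11a1 from -3.04 to -1.19, Col4a5 from -2.41 to -1.33 and Col13a1 from 0.19 to 1.42. The cause was not tested.

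Counts of pathway genes at an unadjusted p under 0.05 were 2 for biosynthesis, 0 for crosslinking, 2 for breakdown, 0 for receptors and 2 for basement membrane partners without both Mim2 arrays, where 2.76% of all named genes were higher and 3.41% lower, with medians of -0.23 for crosslinking and -0.22 for breakdown. Breakdown had 0 without the sex term, where 6.92% of all named genes were higher and 5.25% lower. Crosslinking had 6 with the mean over all features, where these shares were 7.54% and 6.4%. The table of the series holds only part of the features, with the same intensity values. Over the receptors and the basement membrane partners that it holds, the medians were -0.34 and -1.26. Leaving out 1 array gave medians of -0.48 to -0.13 for biosynthesis, -0.01 to 0.29 for receptors and -0.95 to -0.42 for basement membrane partners. Counts were then 2 to 5 for crosslinking and 0 to 2 for breakdown. Of all named genes, 4.58% to 8.67% were higher and 3.85% to 7.88% lower in those fits. On the brightest features, trend and robust variance estimates gave 1 collagen past the interaction threshold, Col9a3 (adjusted p = 0.0233 in limma). At an unadjusted p under 0.05 they gave 5 lower, where 9.22% of all named genes were lower. Leaving out 1 array moved the interaction of Col9a3 from -2.91 to -2.24.

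No paired analysis was possible because the labels give the genotypes no shared replicate numbers. No slide or scan could serve as a block, since the tables name neither. Quantile normalization and centring on the median moved the median of all features by less than 0.05. For Col24a1, Col4a3 and Col20a1 signal near the random probes limits what the size of a difference can mean.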

Other observations

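The collagens under older array names were set beside the family. Col6a5, a further chain of type VI collagen listed as Gm7455, has 3 features, and the one at chr9:105758399-105784409 of MM9 read 5.20, 5.43, 7.71 and 7.13 in the knockout, against 5.64, 5.10, 3.85 and 4.76 in the wild type. Both Mim2 arrays lay above all others, and the difference was 1.53 (SE 0.51, limma unadjusted p = 0.0151, adjusted p = 0.295). It exceeded the random probes on 4 knockout arrays and 2 wild-type arrays, so its size is inexact. The other Col6a5 features differed by 0.50 and 0.41. Col6a6, listed as E330026B02Rik, differed by -0.61 and was near the random probes. Col26a1, listed as Emid2, has 4 features, whose differences were 0.87, 0.34, -0.35 and -0.81, so they did not share a direction.

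Over the 20 collagens with several features, all features of a gene had differences of 1 sign for 10 genes and of both signs for the other 10. Among the genes with 1 sign were Col9a1, Col9a3 and Col11a1, negative on each of their 2 features, and Col8a2, positive on both. Between mice labelled female, however, the Col11a1 features differed in sign, at -0.54 and 0.83. Among those with both signs were Col1a2, Col4a6 and Col27a1, whose features ran from -1.36 to 0.33, from -1.76 to 0.65 and from -1.09 to 0.60.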
